A study of Brassica rapa subsp. pekinensis with 6 samples.

Results

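The aquaporins and sugar transporters of Chinese cabbage were followed in germinated seeds with and without vernalization, the long cold that prepares the plant to flower. The annotated mRNAs whose description contains 1 of 7 phrases (aquaporin, SWEET, sugar transport, sugar transporter, sucrose transport, polyol transporter or monosaccharide-sensing, in any letter case) numbered 139 of 33354. Of these, 51 were aquaporins, called water carriers here, and 88 were sugar carriers. All seeds belonged to 'FT', a doubled haploid line, and carried no transgene or mutation named in the labels. The Ver seeds were kept at 4 °C in darkness for 25 days after they had germinated, and the Nor seeds were kept at 25 °C in darkness for about 48 h. Both were collected at the same length. Temperature and age therefore differ together between Ver and Nor and cannot be told apart. A single line limits what the values say of other Chinese cabbages. There are 3 libraries for Ver and 3 for Nor, and the study names a culture dish of seeds as 1 biological repetition. It describes 3 dishes and a division of the seeds after germination. Whether Ver and Nor came from separate dishes is therefore unclear.

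Aquaporins are membrane channels through which water, and for some of them small solutes such as glycerol, boric acid or silicic acid, moves down its gradient. PIP proteins sit in the plasma membrane, TIP proteins in the membrane around the vacuole (the tonoplast), SIP proteins in the endoplasmic reticulum, and NIP proteins carry mainly small uncharged solutes. In Arabidopsis, TIP3 is the tonoplast aquaporin of the protein storage vacuoles of the seed, while TIP1 and TIP2 belong to the large vacuoles of growing cells. Sugar carriers include SWEET uniporters, which let sugars cross a membrane in either direction, down their gradient. Others are proton-coupled importers of sucrose (SUC), hexoses (STP) and polyols (PLT). Tonoplast carriers are the monosaccharide-sensing proteins (MSSP), which load the vacuole, and members of the ERD6-like family, some of which let glucose out of it.

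The libraries held estimated counts of between 83976912 and 104903263 in all. These totals exceed the mapped reads listed by the study, so the counts are not independent reads, and any interval that covers counting error is too narrow. The water and sugar carriers took 0.509% to 0.545% of the counts in Ver libraries, against 0.615% to 0.638% in Nor libraries. FPKM, a level per transcript length and library size, is used below to compare genes, and normalised counts are used for fold changes. As a check of the tissue, the 32 mRNAs described as seed reserve genes (cruciferin, napin, oleosin and other seed storage proteins) summed to 1438 to 1475 FPKM in Ver and 40.5 to 44.5 FPKM in Nor. The 29 mRNAs of leaf photosynthesis (chlorophyll a-b binding proteins and the small Rubisco chain) summed to 15100 to 15360 FPKM in Ver and 8050 to 8474 FPKM in Nor. The higher Ver sum came from the chlorophyll a-b binding genes, while the small Rubisco chain genes averaged lower in Ver. Among the latter, BraA04g010970.3C averaged 851.2 FPKM in Ver and 2457 in Nor, and BraA07g019510.3C 291.3 and 746.8 FPKM. No gene of either list was at 0 in all libraries. In bulk RNA, more cells of a type and more RNA per cell cannot be told apart.

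Both kinds of carrier moved in both directions. Among the 46 water carriers with enough counts for the test, 8 were higher in Ver (17.4%) and 10 were lower (21.7%). Among the 74 tested sugar carriers, 11 were higher (14.9%) and 13 were lower (17.6%). The background over all 26531 tested mRNAs was 8.42% higher and 9.39% lower. A gene was called when its log2 fold change (Ver over Nor) exceeded 1 in size and edgeR's quasi-likelihood test gave an unadjusted p no greater than 0.05. With an adjusted p of at most 0.05 instead, 8 water carriers were higher and 10 lower, and 10 sugar carriers were higher and 12 lower, beside 6.98% and 8.00% of all tested mRNAs. The median log2 fold change was -0.32 for the water carriers and -0.03 for the sugar carriers, against -0.01 for all tested mRNAs. Each of the 42 called members had Ver and Nor libraries that did not overlap in normalised counts, as did 98.2% of all called mRNAs and 52.7% of all tested ones. The remaining 28 water carriers and 50 sugar carriers that were tested were not called, and 5 and 14 members had too few counts to be tested.

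**Figure D1:**
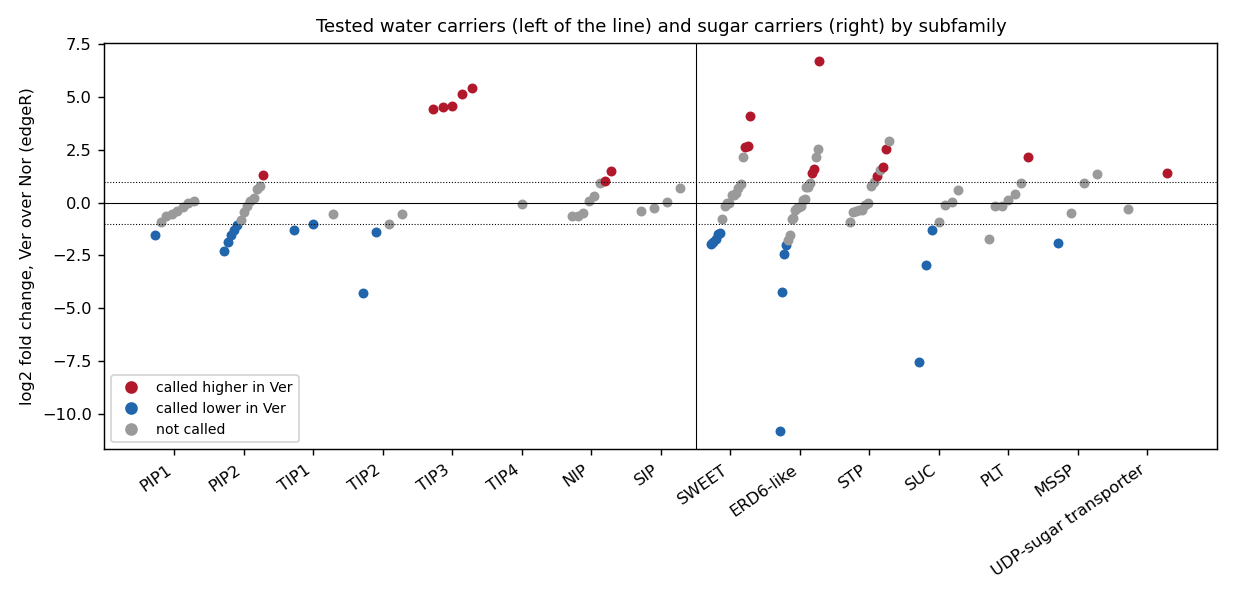
Fitted log2 fold change (Ver over Nor, y axis) of each of the 120 tested members, 1 point each, by subfamily (x axis), with dotted lines at the fold threshold of 1. All 5 TIP3 points lie between 4.43 and 5.44, the 3 TIP1 and 4 TIP2 points all lie below 0, and the ERD6-like and SWEET points spread to both sides; the lowest point of ERD6-like and that of SUC belong to genes with 0 counts in every Ver library, so their position depends on the prior count of the fit.

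Summed over the 51 members, the water carriers stood at 3718 ± 4.28 FPKM in Ver and 4708 ± 47.6 FPKM in Nor (SD, n = 3 each). The composition of this total differed between the groups. TIP1 summed to 856 ± 11.8 FPKM in Ver and 1552 ± 28.3 in Nor, and TIP2 to 321 ± 6.40 and 599.6 ± 12.5 FPKM. PIP1 stood at 853 ± 4.87 FPKM in Ver and 1064 ± 10.4 in Nor, while PIP2, the largest class in Ver, differed less, at 1271 ± 18.8 and 1313 ± 11.8 FPKM. In the other direction, TIP3 summed to 205.6 ± 3.23 FPKM in Ver and 7.81 ± 0.954 in Nor, and NIP to 89.8 ± 2.71 and 44.6 ± 2.60 FPKM. As shares of all water carrier FPKM, TIP1 made up 23.0% in Ver and 33.0% in Nor, PIP2 34.2% and 27.9%, and TIP3 5.53% and 0.166%. These sums are descriptions and were not tested.

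**Figure D2:**
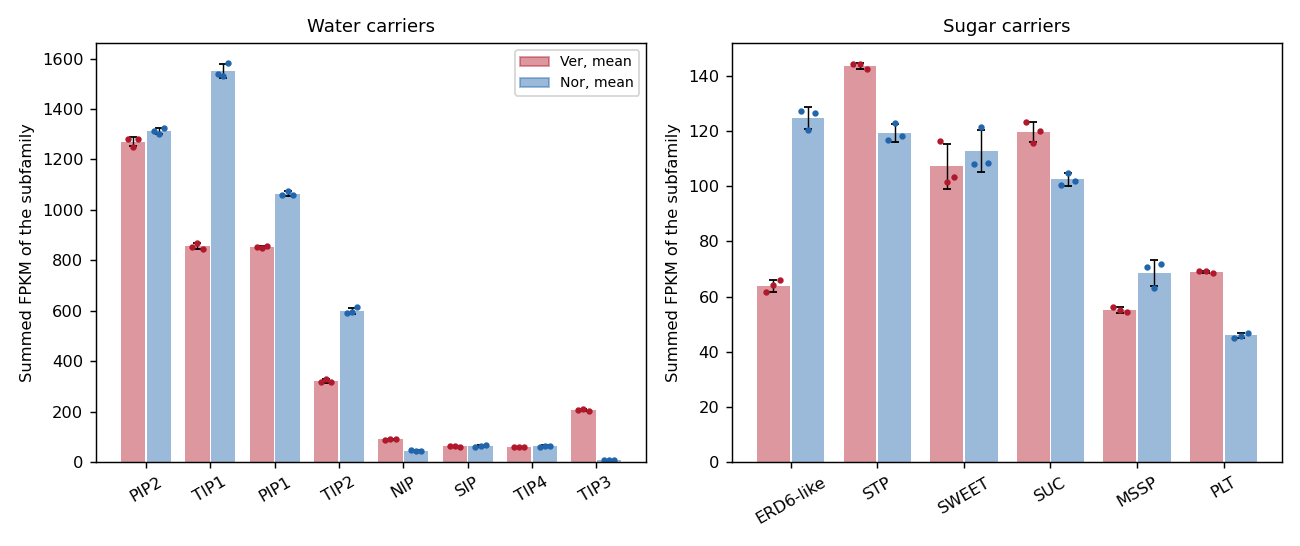
Summed FPKM (y axis, from 0) of the main water carrier subfamilies (left) and sugar carrier subfamilies (right) in Ver and Nor. Bars are means, error bars are SD over 3 libraries and points are single libraries; TIP3 and NIP are higher in Ver, TIP1, TIP2, PIP1 and ERD6-like are lower in Ver, and the PIP2, SIP and SWEET bars lie close together.

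TIP3 was the subfamily with the widest separation. All 5 of its members were tested and all 5 rose, by between 21.6-fold and 43.5-fold. BraA09g057520.3C (TIP3-2, chromosome A09, 40918161 to 40919312, minus strand, 3 exons) had 45.9, 49.9 and 46.9 FPKM in Ver 1, 2 and 3, against 1.01, 1.11 and 1.14 FPKM in Nor 1, 2 and 3. BraA02g021560.3C (TIP3-1, chromosome A02, 12614953 to 12615901, plus strand) had 20.2, 21.9 and 20.2 FPKM in Ver, against 0.543, 0.623 and 0.59 FPKM in Nor. The Ver libraries lay within a narrow range for both genes, and all of them lay far above all Nor libraries. BraA07g028850.3C (TIP3-1-like, chromosome A07, 21381285 to 21382249, minus strand), the most abundant of the 5 in Ver, had 88.2, 80.7 and 82.4 FPKM in Ver, against 3.41, 3.93 and 4.28 FPKM in Nor. BraA07g037330.3C, also TIP3-1-like, had 34.2, 38.3 and 34.4 FPKM in Ver, against 1.37, 1.15 and 2.06 FPKM in Nor. BraA06g013600.3C (TIP3-2) had 17.8, 17.7 and 18.2 FPKM in Ver, against 0.603, 0.85 and 0.756 FPKM in Nor. None of the 5 overlapped between Ver and Nor, and BraA07g028850.3C had the highest mean of the 5 in both.

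The log2 fold changes of the TIP3 genes were 5.44 ± 0.07 (SE) for BraA09g057520.3C, 5.13 ± 0.10 for BraA02g021560.3C, 4.59 ± 0.15 for BraA06g013600.3C, 4.53 ± 0.26 for BraA07g037330.3C and 4.43 ± 0.10 for BraA07g028850.3C. Their adjusted p values from edgeR ran from 2.62e-06 for the first to 0.000181 for BraA07g037330.3C. In the same libraries, 22 of the 27 tested seed reserve genes were called higher in Ver and 2 lower, with a median log2 fold change of 4.41. Of the 28 tested leaf photosynthesis genes, 12 were called higher, all for chlorophyll a-b binding proteins, and 2 lower, both for the small Rubisco chain. The part of these tissue markers in the TIP3 values was not tested. An assembled transcript on the opposite strand overlapped BraA07g028850.3C and averaged 1239 counts in Ver and 15.7 in Nor. The library kit marks strand, but how the counting used strand is not given in the sources used here. The share of reads between the transcripts of each such pair is therefore uncertain.

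**Figure D3:**
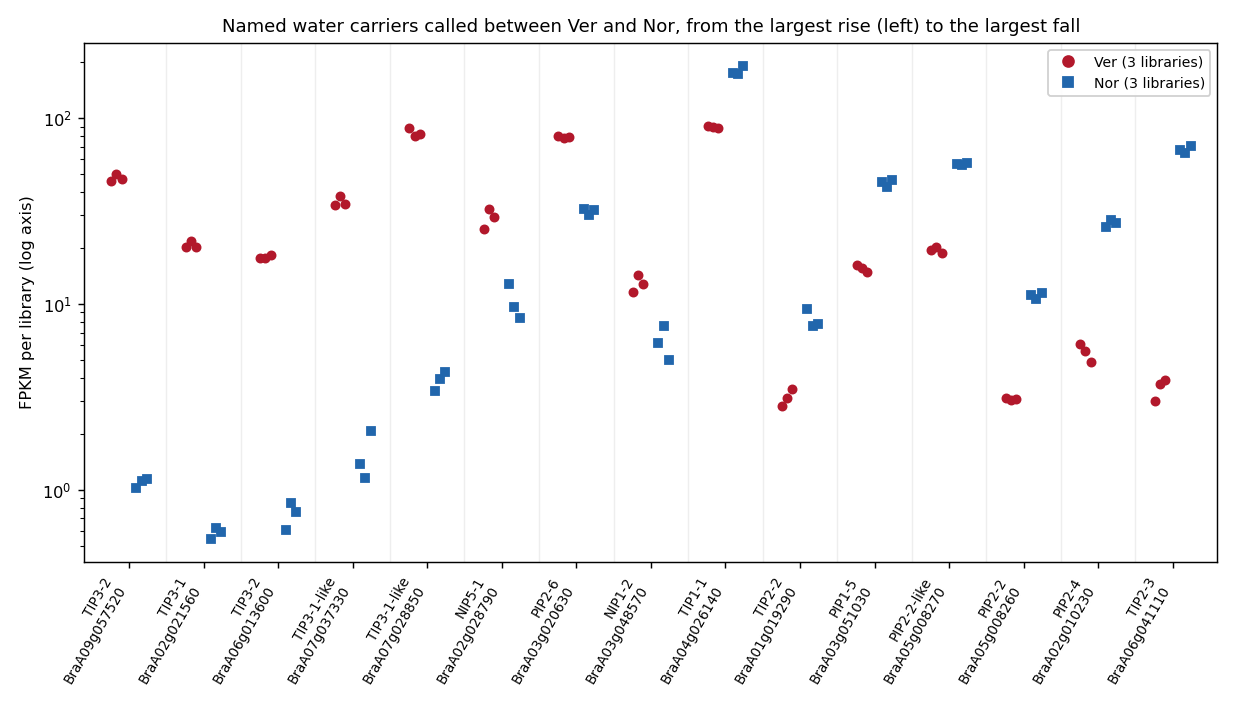
FPKM (y axis, log scale) of the 15 named water carriers that were called, in each of 3 Ver libraries (circles) and 3 Nor libraries (squares), ordered on the x axis by fold change. The 5 TIP3 genes at the left have Ver points from 17.7 to 88.2 FPKM and Nor points from 0.543 to 4.28 FPKM, and TIP2-3 at the right has Ver points from 2.99 to 3.89 and Nor points from 65.0 to 70.4.

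The other tonoplast aquaporins were lower in Ver or not called. The largest fall was that of the TIP2-3 gene BraA06g041110.3C (chromosome A06, 27172535 to 27173869, plus strand, 2 exons), which had 2.99, 3.70 and 3.89 FPKM in Ver, against 67.6, 65.0 and 70.4 FPKM in Nor. That is 19.2-fold lower (log2 -4.26 ± 0.12, adjusted p 2.05e-05 in edgeR), and TIP2-3 was the only TIP2 gene with a change of this size. TIP2-2 (BraA01g019290.3C) had 2.83, 3.10 and 3.47 FPKM in Ver, against 9.41, 7.60 and 7.82 FPKM in Nor (log2 -1.40 ± 0.14, adjusted p 0.00147). The most abundant TIP2 gene, the TIP2-1 gene BraA05g030960.3C, was not called. Its levels were 195.9, 199.1 and 193.6 FPKM in Ver and 283.5, 286.5 and 295.4 FPKM in Nor, which do not overlap, and its log2 difference of -0.56 ± 0.03 did not reach the fold threshold (adjusted p 8.21e-05).

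TIP1, the main tonoplast water channels of growing plant cells, held 2 of the 3 most abundant Nor water carriers. TIP1-2-like BraA06g038250.3C fell, with 251.3, 261.9 and 255 FPKM in Ver and 634.1, 620.8 and 647.9 FPKM in Nor (log2 -1.31 ± 0.03, adjusted p 9.64e-06). Its partner TIP1-2 gene BraA02g036980.3C, the most abundant water carrier over all libraries, had 509.3, 517.7 and 502.6 FPKM in Ver and 730.3, 738.6 and 746.2 FPKM in Nor, a log2 difference of -0.54 ± 0.02 that was not called. TIP1-1 (BraA04g026140.3C) stood at 89.6 ± 0.932 FPKM in Ver and 179.3 ± 9.54 FPKM in Nor (SD, n = 3 each), at the fold threshold itself (log2 -1.0035 ± 0.04, adjusted p 7.36e-05). Its call ended under 11 of 19 alternatives, among them leaving out Ver 2, Ver 3 or Nor 3, with values between -1.03 and -0.96. TIP4-1 (BraA04g018980.3C) was at 60.4 ± 0.717 FPKM in Ver and 63.8 ± 2.003 FPKM in Nor (log2 -0.08 ± 0.03, adjusted p 0.114) and was not called. TIP5-1 had 0 counts in Ver 2, Ver 3 and Nor 3 and was not tested.

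Plasma membrane aquaporins fell in part. All 4 genes described as PIP2-2 or PIP2-2-like were called lower in Ver, and they lie as neighbouring pairs on A03 and A05. BraA03g019360.3C, the most abundant of them, had 144.3, 149.6 and 146.3 FPKM in Ver and 302.9, 293.7 and 304.4 FPKM in Nor (log2 -1.04 ± 0.03, adjusted p 1.7e-05). Summed with the other transcripts of its locus, the value was -0.9963 and just missed the fold threshold. Its neighbour BraA03g019370.3C stood at 14.7 and 35.5 FPKM in Ver and Nor on average (log2 -1.27, adjusted p 0.00294). On A05, BraA05g008260.3C had 3.13, 3.04 and 3.06 FPKM in Ver and 11.1, 10.6 and 11.5 FPKM in Nor (log2 -1.85 ± 0.05, adjusted p 1.6e-05), and BraA05g008270.3C had 19.6, 20.2 and 18.8 FPKM in Ver and 56.3, 55.9 and 57.3 FPKM in Nor (log2 -1.54 ± 0.04, adjusted p 1.57e-05). The 4 are close copies by description, and how reads were shared among such copies is uncertain. BraA05g008260.3C is annotated with 2571 bases, against a median of 852 for the water carriers, which lowers its FPKM. The part of the added length in its counts and fold change was not tested.

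PIP2-4 (BraA02g010230.3C) had 6.09, 5.57 and 4.86 FPKM in Ver, against 26.0, 28.4 and 27.3 FPKM in Nor, 4.95-fold lower (log2 -2.31 ± 0.10, adjusted p 7.49e-05). A further PIP2-4 gene, BraA03g010640.3C, was at 22.1 and 30.1 FPKM on average in Ver and Nor, a log2 difference of -0.44 that was not called. PIP1-5 (BraA03g051030.3C) was the 1 PIP1 gene of 8 that was called, as lower in Ver, with 16.1, 15.6 and 14.9 FPKM in Ver and 45.1, 42.4 and 46.2 FPKM in Nor (log2 -1.52 ± 0.06, adjusted p 3.97e-05). The Ver libraries of both called genes lay below every Nor library. PIP2-6 (BraA03g020630.3C) was the 1 PIP gene called higher, with 79.8, 78.5 and 79.7 FPKM in Ver and 32.6, 30.02 and 32.0 FPKM in Nor (log2 1.33 ± 0.04, adjusted p 2.94e-05).

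Several of the most abundant plasma membrane channels were not called. The called PIP2-2-like gene BraA03g019360.3C, at a mean of 223.5 FPKM over all libraries, was also abundant. It lay above the uncalled PIP2-7 gene BraA01g003270.3C, at 164.6 FPKM. PIP2-7-like BraA08g015490.3C, the water carrier with the highest Ver level, had 663.3, 641.9 and 666.8 FPKM in Ver and 560.2, 572.7 and 570.9 FPKM in Nor (log2 0.21 ± 0.02). PIP1-2-like BraA04g031870.3C had 274.5, 272.1 and 284.1 FPKM in Ver and 422.7, 426 and 417.1 FPKM in Nor (log2 -0.61 ± 0.02). For both genes the Ver and Nor libraries did not overlap and the adjusted p was low (0.00138 and 5.04e-05 in edgeR), with differences under the fold threshold. Another PIP1-2-like gene, BraA05g005590.3C, averaged 345.7 FPKM in Ver and 327.1 FPKM in Nor (log2 0.08, adjusted p 0.0239). PIP2-7 itself (BraA01g003270.3C) averaged 207.5 FPKM in Ver and 121.8 FPKM in Nor (log2 0.77, adjusted p 0.000127). SIP1-1 (BraA05g042350.3C), of the endoplasmic reticulum, averaged 39.1 and 38.4 FPKM in Ver and Nor, and its libraries overlapped (log2 0.02 ± 0.06, adjusted p 0.816).

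Among the NIP genes, 2 of 8 tested were called, both higher in Ver. NIP5-1, a boric acid channel in Arabidopsis, has a pair of copies. BraA02g028790.3C had 25.4, 32.5 and 29.2 FPKM in Ver and 12.8, 9.63 and 8.43 FPKM in Nor (log2 1.4955 ± 0.19, adjusted p 0.00307). The annotated form took 24.7% of that locus, and the locus sum gave log2 0.79 ± 0.05, which was not called. BraA03g027250.3C had 45.2, 40.2 and 44.5 FPKM in Ver and 23.3, 21.5 and 23.6 FPKM in Nor, without overlap, with log2 0.92 ± 0.07 (adjusted p 0.000418), not called. NIP1-2 (BraA03g048570.3C) had 11.6, 14.2 and 12.7 FPKM in Ver and 6.19, 7.57 and 4.97 FPKM in Nor (log2 1.04 ± 0.18, adjusted p 0.00903). Its call ended without Ver 2 (0.96) and without Nor 3 (0.90), while its locus sum gave 1.53.

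The sugar carriers summed to 560.2 ± 11.2 FPKM in Ver and 575.2 ± 5.50 FPKM in Nor, so their total lay close together while its parts did not. ERD6-like carriers summed to 63.9 ± 2.12 FPKM in Ver and 124.8 ± 3.88 in Nor, and MSSP to 55.3 ± 1.05 and 68.5 ± 4.87 FPKM. STP carriers summed to 143.7 ± 1.16 FPKM in Ver and 119.3 ± 3.13 in Nor, SUC to 119.7 ± 3.73 and 102.5 ± 2.29, and PLT to 69.0 ± 0.359 and 45.9 ± 0.991 FPKM. The SWEET sums of 107.2 ± 8.10 FPKM in Ver and 112.7 ± 7.63 in Nor overlapped between libraries. Sugar carriers were much less abundant than water carriers. Their median FPKM over all libraries was 0.949, against 25.6 for the water carriers, and 45 of 88 sugar carriers averaged below 1 FPKM, against 8 of 51 water carriers. Only 5 of the 24 called sugar carriers averaged at least 10 FPKM, against 14 of the 18 called water carriers.

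SWEET proteins, which move sugars down their gradient, gave 3 higher and 5 lower calls among 18 tested. The pair named SWEET1, a glucose uniporter in Arabidopsis, split. SWEET1-like BraA08g027350.3C had 16.0, 14.7 and 14.3 FPKM in Ver and 2.22, 2.55 and 2.34 FPKM in Nor, 6.29-fold higher (log2 2.65 ± 0.10, adjusted p 3.97e-05). SWEET1 BraA06g016930.3C had 5.55, 5.77 and 4.73 FPKM in Ver and 19.8, 22.8 and 19.6 FPKM in Nor, 3.88-fold lower (log2 -1.96 ± 0.11, adjusted p 0.000188). Neither gene overlapped between Ver and Nor. In the reported test, no other name with at least 2 tested copies had calls in both directions, out of 22 such sugar carrier names. The annotated transcript of BraA08g027350.3C held 39.8% of its locus, whose sum gave log2 3.15 ± 0.06.

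Other SWEET calls were mostly falls of low genes. SWEET11 (BraA06g018300.3C), which in Arabidopsis releases sucrose for loading into the phloem, had 1.62, 1.62 and 1.25 FPKM in Ver and 5.45, 4.12 and 5.25 FPKM in Nor (log2 -1.72 ± 0.19, adjusted p 0.00188). SWEET15-like BraA10g025580.3C had 1.19, 0.823 and 0.813 FPKM in Ver and 3.71, 3.21 and 3.55 FPKM in Nor (log2 -1.88 ± 0.21, adjusted p 0.00207). SWEET16 (BraA01g035840.3C), a tonoplast carrier, had 3.09, 2.29 and 2.60 FPKM in Ver and 7.42, 6.58 and 7.38 FPKM in Nor (log2 -1.42 ± 0.15, adjusted p 0.00175). All 3 were lower in every Ver library than in any Nor library. The most abundant SWEET gene, SWEET12-like BraA06g031080.3C, averaged 25.4 ± 3.11 FPKM in Ver and 26.1 ± 1.26 in Nor, and its libraries overlapped (log2 -0.04 ± 0.10, adjusted p 0.817).

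The last 3 SWEET calls rested on few counts. SWEET5 (BraA09g007430.3C) had 24, 12 and 38 counts in Ver and 4, 0 and 0 in Nor (log2 4.09 ± 1.27, adjusted p 0.0608). It lost its call without Ver 1 (log2 4.09, p 0.0563), Ver 3 (3.69, p 0.0689), Nor 2 (3.59, p 0.0575) or Nor 3 (3.54, p 0.054) in the same edgeR test, and the value without Nor 1 was 7.60. SWEET14-like BraA08g020240.3C had 13, 52 and 48 counts in Ver and 79, 87 and 142 in Nor (log2 -1.46 ± 0.57, adjusted p 0.113). It kept its call only without Ver 1, where the value was -1.06, and the p of the 5 other fits with a library left out ran from 0.0555 (without Ver 2) to 0.132 (without Nor 3). SWEET2-like BraA05g032350.3C, with 36, 24 and 51 counts in Ver and 2, 4 and 11 in Nor, was called higher (log2 2.68 ± 0.69, adjusted p 0.0339), with a value of 3.47 without Nor 3. Another assembled form of its locus had more counts, with 451, 697 and 551 in Ver and 111, 128 and 162 in Nor (log2 2.06, p 0.000261 in edgeR).

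The sucrose importers gave 3 calls among 7 tested, all of them falls. Most SUC transcripts came from SUC1-like BraA07g029350.3C, the most abundant sugar carrier, which had 96.7, 89.4 and 94.9 FPKM in Ver and 59.5, 62.4 and 60.9 FPKM in Nor. Its Ver libraries all lay above its Nor libraries, and the log2 difference of 0.62 ± 0.04 (adjusted p 0.000219) was below the fold threshold. The other copies of SUC1-like fell. BraA07g036350.3C had 0.34, 0.183 and 0.124 FPKM in Ver and 1.45, 1.64 and 1.99 FPKM in Nor (log2 -2.96 ± 0.44, adjusted p 0.00531). BraA03g058820.3C had 0 counts in each Ver library and 11, 30 and 28 counts in Nor, at least 7.91-fold lower when 3 counts per library are taken as the floor (adjusted p 0.0167). Its call ended with the replicate block (p 0.0612 in edgeR), and with counts divided by 3 it was no longer tested. SUC4-like BraA09g062110.3C, of the tonoplast in Arabidopsis, averaged 2.24 ± 0.152 FPKM in Ver and 5.50 ± 0.473 FPKM in Nor (log2 -1.30 ± 0.11, adjusted p 0.000712). The SUC2 gene BraA07g014520.3C, named for the sucrose loader of the phloem, averaged 10.9 FPKM in Ver and 20.3 FPKM in Nor without overlap (log2 -0.90 ± 0.06, adjusted p 0.000233) and was not called.

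The hexose importers of the STP family gave 3 calls among 14 tested, all of them rises and all at low levels. STP6-like BraA03g032430.3C had 3.45, 3.82 and 3.71 FPKM in Ver and 1.21, 1.07 and 1.08 FPKM in Nor (log2 1.71 ± 0.11, adjusted p 0.000322). STP7 (BraA09g002140.3C) had 80, 108 and 38 counts in Ver and 14, 10 and 14 counts in Nor (log2 2.57 ± 0.48, adjusted p 0.0117). STP4-like BraA03g039110.3C had 56, 49 and 61 counts in Ver and 19, 21 and 29 in Nor (log2 1.25 ± 0.27, adjusted p 0.0203). These genes were higher in all Ver libraries than in any Nor library. The abundant STP genes were not called, among them STP13 (BraA09g005570.3C), at 56.8, 54.7 and 54.9 FPKM in Ver and 32.6, 32.1 and 31.5 FPKM in Nor (log2 0.79 ± 0.03, adjusted p 4.76e-05). STP4-like BraA01g033330.3C, at 28.9 and 14.6 FPKM on average in Ver and Nor, stopped short of the threshold at log2 0.98 ± 0.05 (adjusted p 0.00011) and passed it without Nor 2, at 1.03.

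Of the polyol carriers, 1 of 7 tested was called. PLT6 (BraA03g060140.3C, chromosome A03, 31984201 to 31985899, minus strand) had 24.0, 23.2 and 22.0 FPKM in Ver and 5.14, 5.36 and 5.10 FPKM in Nor, 4.43-fold higher (log2 2.15 ± 0.05, adjusted p 1.33e-05). The other 3 genes described as PLT6 had log2 values from -1.74 to 0.12 and were not called. The lowest of them, BraA08g021190.3C, was called lower under some alternatives, among them DESeq2 (p 0.0119) and the locus fit in edgeR (p 0.014). Of the fits with a library left out, only that without Ver 2 called it (-2.87, p 0.000502 in edgeR). PLT5 (BraA03g038570.3C), a carrier of polyols and monosaccharides in Arabidopsis, averaged 16.5 ± 0.28 FPKM in Ver and 18.5 ± 0.916 FPKM in Nor and was not called (log2 -0.17 ± 0.05, adjusted p 0.0417).

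ERD6-like carriers, named after a drought-induced Arabidopsis gene, held the largest fall among the 5 called sugar carriers that averaged at least 10 FPKM. ERD6-like 16 (BraA10g021360.3C, chromosome A10, 15276587 to 15279647, minus strand, 16 exons) had 15.7, 16.3 and 16.3 FPKM in Ver and 87.0, 86.2 and 87.9 FPKM in Nor, 5.41-fold lower (log2 -2.44 ± 0.03, adjusted p 1.69e-06). The difference of its means, 16.1 against 87.0 FPKM, compares with ERD6-like sums of 63.9 and 124.8 FPKM. ERD6-like 13 (BraA05g026760.3C) had 1.18, 1.05 and 1.24 FPKM in Ver and 5.02, 5.14 and 3.88 FPKM in Nor (log2 -2.02 ± 0.16, adjusted p 0.000549). ERD6-like 8 (BraA01g042840.3C) had 12, 3 and 4 counts in Ver and 136, 118 and 114 counts in Nor (log2 -4.25 ± 0.63, adjusted p 0.00522), and the value without Ver 1 was -5.13. Each was lower in all Ver libraries than in any Nor library. ERD6-like 3 (BraA06g005930.3C) had 0 counts in every Ver library and 256, 151 and 275 counts in Nor, at least 75.4-fold lower with 3 counts per library as the floor (adjusted p 0.0014). That transcript held 28.2% of its locus, and the locus sum was lower by much less, at log2 -2.04 ± 0.16.

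Both genes described as ERD6-like 4 rose. BraA06g015050.3C had 17.1, 17.5 and 14.9 FPKM in Ver and 6.44, 6.44 and 5.67 FPKM in Nor (log2 1.41 ± 0.09, adjusted p 0.000292). BraA09g056610.3C had 65, 81 and 101 counts in Ver and 0, 0 and 2 counts in Nor (log2 6.70 ± 1.01, adjusted p 0.00561). By counts alone the ratio was 122, with an exact binomial 95% interval of 33.4 to 1010 that covers counting error only, and the fitted log2 value without Nor 3, which held both Nor counts, was 9.34. The monosaccharide-sensing proteins, vacuolar sugar importers, gave 1 call. MSSP1 (BraA06g016280.3C) fell, with 6.97, 7.64 and 7.48 FPKM in Ver and 27.2, 28.0 and 27.7 FPKM in Nor (log2 -1.91 ± 0.05, adjusted p 1.2e-05). MSSP2 (BraA01g003090.3C) had 31.0, 28.9 and 30.3 FPKM in Ver and 18.9, 9.71 and 19.1 FPKM in Nor (log2 0.91 ± 0.28, adjusted p 0.0553). Nor 2 stood apart in the annotated form of MSSP2, which was not called. The log2 value of MSSP2 was 1.06 without Nor 1 or Nor 3, where it was called, and 0.66 without Nor 2. These values are of the annotated form alone. The annotated form had 5786, 2492 and 5864 counts in Nor 1, 2 and 3. Another assembled form of the locus, with the same ends, had 455, 2578 and 443 counts there. In Ver 1, 2 and 3 that form had 352, 912 and 235 counts. Of the 2 genes described as UDP-sugar transporters, BraA01g006280.3C had 64, 46 and 28 counts in Ver and 19, 16 and 16 in Nor (log2 1.42 ± 0.41, adjusted p 0.0472). Its call ended without Ver 1 (1.09, p 0.0518) and without Nor 3 (1.34, p 0.0556). The other, BraA08g017410.3C, averaged 1.09 ± 0.0719 FPKM in Ver and 1.32 ± 0.576 FPKM in Nor with overlap (adjusted p 0.617).

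**Figure D4:**
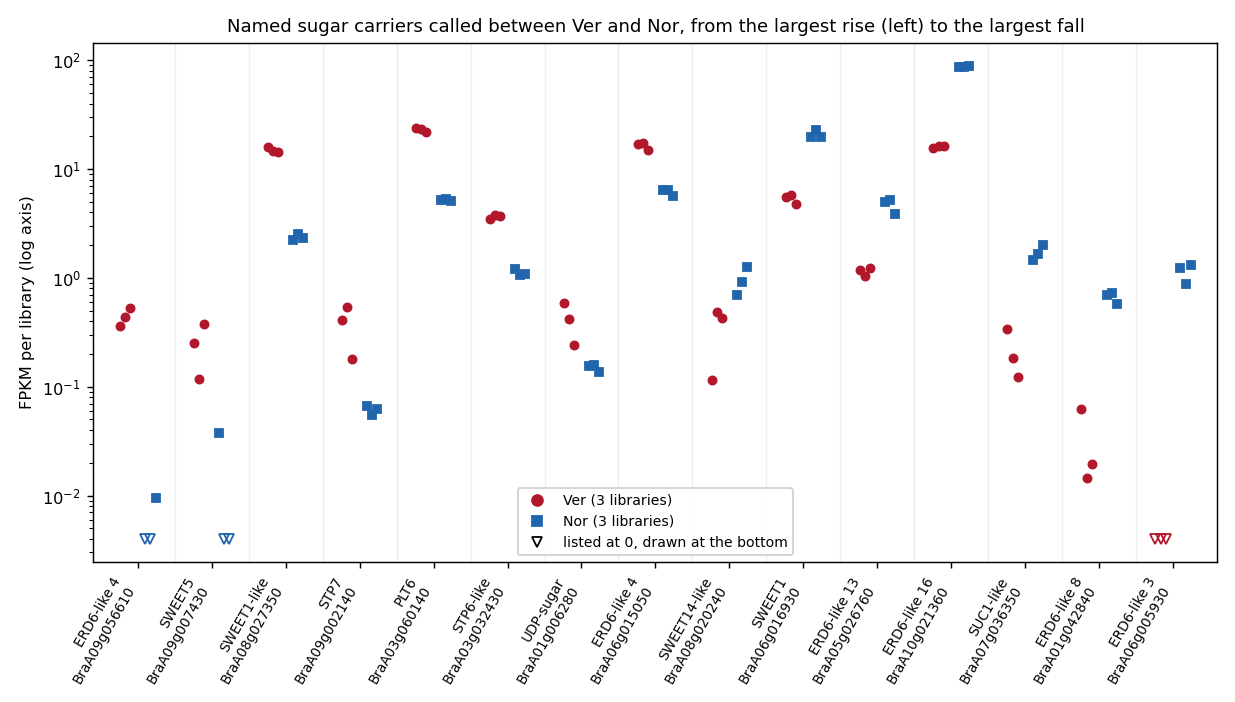
FPKM (y axis, log scale) of the 15 named sugar carriers that were called, in each of 3 Ver libraries (circles) and 3 Nor libraries (squares), ordered on the x axis by fitted fold change, with open triangles for values listed at 0. Ver and Nor points do not overlap for any gene; most lie below 10 FPKM, and ERD6-like 16 is the 1 gene with Nor points from 86.2 to 87.9 FPKM.

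The counts were also read over whole loci, since the assembly added transcripts to many of them. The annotated transcript held less than 50% of its locus counts for 4 of 51 water carriers, of which 3 were called, and 21 of 88 sugar carriers, of which 4 were called. Summing all transcripts of a locus kept 15 of 18 water carrier calls and all 24 sugar carrier calls. Of the 3 lost calls, that of TIP1-1 is of a locus with a single transcript, where nothing was summed and only the fit differed. It turned the sign of the log2 difference for 6 of 120 tested members, which were all uncalled. The share of all loci called in the locus fit was not computed, so the calls of loci have no background here. The locus was called and its annotated transcript was not for 1 water carrier and 8 sugar carriers, 3 of which have a single transcript in the locus, so that only the fit differed. The clearest of these, chosen after its values were seen, was SWEET10 (BraA03g015850.3C, chromosome A03, 7254384 to 7255708, plus strand), a sucrose carrier of the same clade as SWEET11. Its annotated transcript had 0, 1 and 2 counts in Ver and 0 in each Nor library and was not tested. A longer assembled form of the same locus had 727, 625 and 801 counts in Ver and 0 counts in each Nor library (adjusted p 0.000393 over the transcripts of all classes).

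For other loci, also picked after their values were seen, the annotated form varied widely from library to library while the locus sum varied less. The ERD6-like gene BraA06g005950.3C had 29, 726 and 1348 counts in Ver and 10, 9 and 352 in Nor, while its locus sum differed by log2 -0.22 ± 0.06. It was called without Nor 3 (log2 6.10, p 0.0303 in edgeR). ERD6-like 6 (BraA07g027830.3C) had 142, 116 and 1001 counts in Ver and 115, 55 and 102 in Nor, with 11.1% of the locus counts and a locus value of -0.76 ± 0.06 (adjusted p 3.58e-06), below the fold threshold. It was called without Ver 1 (2.59, p 0.0469 in edgeR) or Ver 2 (2.63, p 0.0343), and the value without Ver 3 was 0.55. Neither transcript was called with all libraries, with adjusted p values of 0.376 and 0.141 in edgeR.

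**Figure D5:**
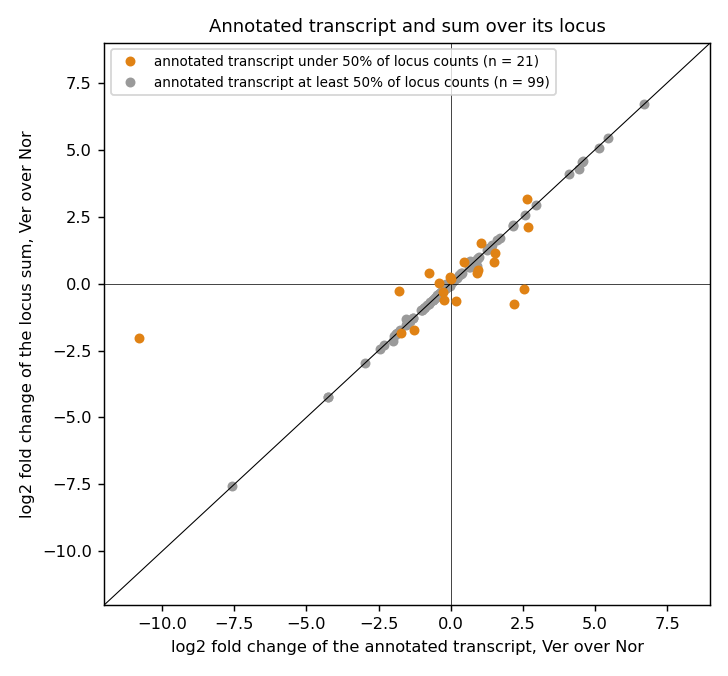
Log2 fold change (Ver over Nor) of the annotated transcript (x axis) and of the sum over all transcripts of its locus (y axis) for the 120 tested members, with the line of equality. The 21 members whose annotated transcript held less than 50% of the locus counts (orange) leave the line most, among them ERD6-like 3 at the far left with a locus value of -2.04.

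For most names, not all of the copies that share the name were called. Of 14 water carrier names with at least 2 tested copies, 7 had a called copy and 3 (PIP2-2, TIP3-1 and TIP3-2) had all copies called in the same direction. Of 22 sugar carrier names, 16 had a called copy and 1 (ERD6-like 4) had all copies called in the same direction. Calls in both directions were found for 0 of the water carrier names and 1 of the sugar carrier names (SWEET1). An uncalled copy beside a called copy does not show that they moved differently. Both TIP1-2 copies fell, at log2 -1.31 and -0.54, and 1 was called. The NIP1-2 copies lay on both sides of 0, at log2 -0.63 and 1.04. Water carriers lay on all 10 chromosomes, 11 of them on A03, and sugar carriers on all 10, with 15 each on A01 and A09. Sugar carrier transcripts were longer, with a median of 1424 bases and 5.5 exons, against 852 bases and 4 exons for water carriers.

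Genes around sugar and water transport were counted in the same way. Of 20 tested genes of sucrose cleavage (invertases and sucrose synthases), 3 were higher and 3 lower in Ver, with a median log2 fold change of 0.03. The cell wall invertase gene BraA01g037790.3C (CWINV1), which splits sucrose outside the cell, fell, with 16.4, 15.0 and 14.4 FPKM in Ver and 37.8, 37.4 and 39.2 FPKM in Nor (log2 -1.32 ± 0.06, adjusted p 7.86e-05). A further CWINV1 gene, BraA05g033210.3C, rose, with 20.1, 19.7 and 7.13 FPKM in Ver and 3.11, 3.36 and 4.63 FPKM in Nor (log2 2.07 ± 0.45, adjusted p 0.0194), and Ver 3 was the lowest Ver library. Of 16 tested hexokinase and fructokinase genes, 4 were lower, with a median of -0.35. Of 8 tested genes of sucrose synthesis, 1 was lower, and of 18 other carriers of sugars, inositol or sugar phosphates, 1 was lower. Among the proton pumps that energise sugar uptake, 1 of 12 tested plasma membrane ATPase genes was called, as lower, and 0 of 30 vacuolar pump genes were called, by edgeR or by DESeq2. At an unadjusted p of at most 0.05 whatever the fold, 1 vacuolar pump gene was higher and 14 were lower in edgeR. The vacuolar pumps summed to 1191 to 1194 FPKM in Ver and 1368 to 1442 FPKM in Nor, with a median log2 fold change of -0.23. The shares of all tested mRNAs called, 8.42% and 9.39%, are the background for these counts too.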

How the data were processed

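Ribosomal RNA was depleted and strand-specific libraries were sequenced from 3 Ver and 3 Nor samples of germinated seeds. The authors mapped reads to B. rapa v3.0 and assembled transcripts with StringTie; the submitters' processing notes name HISAT2, StringTie and TopHat. The authors deposited estimated counts as whole numbers, without normalization, and how they were derived is not given in the sources used here. The FPKM values were deposited by the authors, with 0 written as 0.0001 and read here as 0. Columns with the authors' own fold changes, p-values and calls were not used, and neither was the circRNA table, in which no host gene is a member.

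For 57931 linear transcripts, edgeR 4.0.16 was used under R 4.3.3. Low counts were dropped by filterByExpr (49351 transcripts remained), libraries were scaled by TMM, and the F test of the quasi-likelihood model was applied. P-values were adjusted by Benjamini-Hochberg over the 26531 tested mRNAs. The standard error is the absolute log2 fold change divided by the square root of F. Calls need an absolute log2 fold change above 1 and p of at most 0.05, as in the study. Replicates were not treated as paired. The study names a dish as the biological repetition, and p-values measure the spread between the libraries of a group. Whether Ver and Nor shared dishes is not clear from the study. The method was also run on counts simulated from its own fitted dispersions. Such counts do not carry reads shared between transcripts, so that run does not bear on this sharing. FPKM sums and SDs come from the FPKM values. Figures were drawn with matplotlib 3.10.9.

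Named members were every TIP3 gene; the 6 largest rises and 6 largest falls of each kind among called members with a mean of at least 50 counts in the higher group; the most abundant gene of each subfamily; and members whose call hung on 1 library. Others named were chosen after their values were seen. Subfamilies come from the descriptions. The members, the gene lists and the tests were chosen with earlier results of these data known, and the descriptions that the lists of napin, fructokinase and plasma membrane ATPase genes should skip were set after seeing which ones matched. Alternatives were DESeq2 1.42.0, limma 3.58.1 on log2(FPKM + 1) and log2(FPKM + 0.1), other normalizations, filters, adjustments and features, a robust fit, a replicate block and each library left out.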

Additional observations from a re-analysis of the deposited data

How the results depend on the processing

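The call counts moved by more than 1.5 times under 2 of 19 alternatives, both for sugar carriers higher in Ver, which numbered 11 in the reported test. A mean of at least 1 CPM left 4 of them, since the others were then not tested, and limma on log2(FPKM + 1) also called 4, where the pseudocount shrinks changes of low genes. With each library left out in turn, water carriers higher in Ver numbered 7 to 8 and lower 9 to 11, and sugar carriers higher 10 to 13 and lower 12 to 16. Under all 19 alternatives, 14 of 18 called water carriers and 14 of 24 called sugar carriers stayed called, and with each library left out 16 and 21 did. Replicate numbers gave no sign of pairing, as deviations of same-numbered libraries correlated at -0.001, 0.001 and -0.024 across genes. The replicate block gave 8, 10, 11 and 13 calls. The SUC1-like gene BraA03g058820.3C was the 1 call lost and the PLT6 gene BraA08g021190.3C the 1 gained (-2.14, p 0.0438 in edgeR). Of 809 values of the members named by rule, 761 kept direction and call, 40 lost the call, 2 gained it and 6 turned sign, all of uncalled genes. Without single libraries, SIP1-1 (BraA05g042350.3C) ran from -0.0024 to 0.0736 and was below 0 without Ver 2 (-0.0019), Nor 1 (-0.0022) or Nor 2 (-0.0024). SWEET12-like BraA06g031080.3C ran from -0.1151 to 0.0599 (without Ver 2) and was 0.25 over the locus, and the UDP-sugar gene BraA08g017410.3C ran from -0.5555 to 0.0755 (without Nor 2); the cause was not tested. Low counts of the annotated transcript left 19 members untested, some of them in loci where another assembled form held most of the counts. The values come from 1 line, 1 time and 1 temperature per group.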
